A study of Caenorhabditis elegans with 6 samples.

Results

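The regions described here are places in the worm genome where an H3K27ac peak and an H3K18ac peak coincided in animals that had not been stressed. A pair is an H3K27ac peak and an H3K18ac peak on the same nuclear chromosome that overlap by at least 50% of the length of each. Chromosome X was used up to 7889771 bp, where the H3K18ac table ends. The rule gave 12693 pairs, which is 74.4% of the 17060 H3K27ac peaks and 73.8% of the 17207 H3K18ac peaks in that span. The pairs held 86.6% of the H3K27ac counts and 86.99% of the H3K18ac counts.

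Chromatin immunoprecipitation followed by sequencing was carried out on whole Caenorhabditis elegans of the wild-type strain N2, harvested as L4 larvae or young adults. The series' design text adds that the worms carried an hsp-6::GFP reporter, a transgene that reads out mitochondrial stress. The H3K27ac library and the H3K18ac library compared here both came from worms fed E. coli HT115 with empty vector. The other 4 of the 6 libraries were H3K27ac and H3K18ac from worms fed a mixture with 50% cco-1 RNAi, which depletes a cytochrome c oxidase subunit, and 1 input for each feeding. There was 1 library per mark and feeding, so no value below has a replicate check and no test between the marks was possible. Nothing in the labels says how many animals went into a library.

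Acetylation of lysines 18 and 27 on histone H3 marks promoters and enhancers of active genes. In mammalian cells both residues are acetylated chiefly by the related coactivators CBP and p300, whose worm counterpart is CBP-1. A whole worm at this stage holds intestine, muscle, neurons, hypodermis, pharynx and a large germline, all of which contributed chromatin.

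Each count was scaled to counts per 1000000 (CPM) of what the same library had in all nuclear peaks of the shared span, which was 11161209 for H3K27ac and 8293828 for H3K18ac. The log2 ratio below is always H3K27ac over H3K18ac on this CPM scale, so a value of 0 means an equal share of each library and not an equal number of acetylated histones. A pair or gene is said to favour a mark when that mark's CPM was at least 2-fold the other's. Folds carry exact 95% Clopper-Pearson intervals, which take in counting error and nothing else. Because whole animals were used, more cells carrying a mark and more of it per cell cannot be told apart.

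The levels of both marks followed each other closely over the pairs. H3K27ac ranged between 2.87 and 9198 CPM, with a median of 40.05, and H3K18ac between 4.22 and 11159 CPM, with a median of 44.97. Across the 12693 pairs, Pearson's r of log2 CPM was 0.88 and Spearman's rho 0.89, for points that share genomic position, mappability and the strain. The log2 ratio had a median of -0.16, quartiles of -0.53 and 0.33, and 5% and 95% points of -0.83 and 1.13. The median pair had 447 H3K27ac counts and 373 H3K18ac counts, and the upper bound of its fold was typically 1.33 times the lower bound.

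H3K27ac was favoured by 883 pairs, or 6.96%, and H3K18ac by 272 pairs, or 2.14%. At 1.5-fold the balance turned on the CPM scale, with 2040 pairs (16.1%) higher in H3K27ac and 2635 pairs (20.8%) higher in H3K18ac. These counts and the sign of the median rest on the scaling. TMM scaling, which shifted every log2 ratio by 0.18, put the median pair at 0.02 and gave 1296 pairs favouring H3K27ac and 149 favouring H3K18ac, and 2794 and 991 at 1.5-fold. Setting the median pair to 0, a shift of 0.16, gave 1244 and 161 at 2-fold, and 2732 and 1099 at 1.5-fold. Differences between the medians of lists, places and all genes or pairs are untouched by these shifts, while counts past a fold are not.

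**Figure D1:**
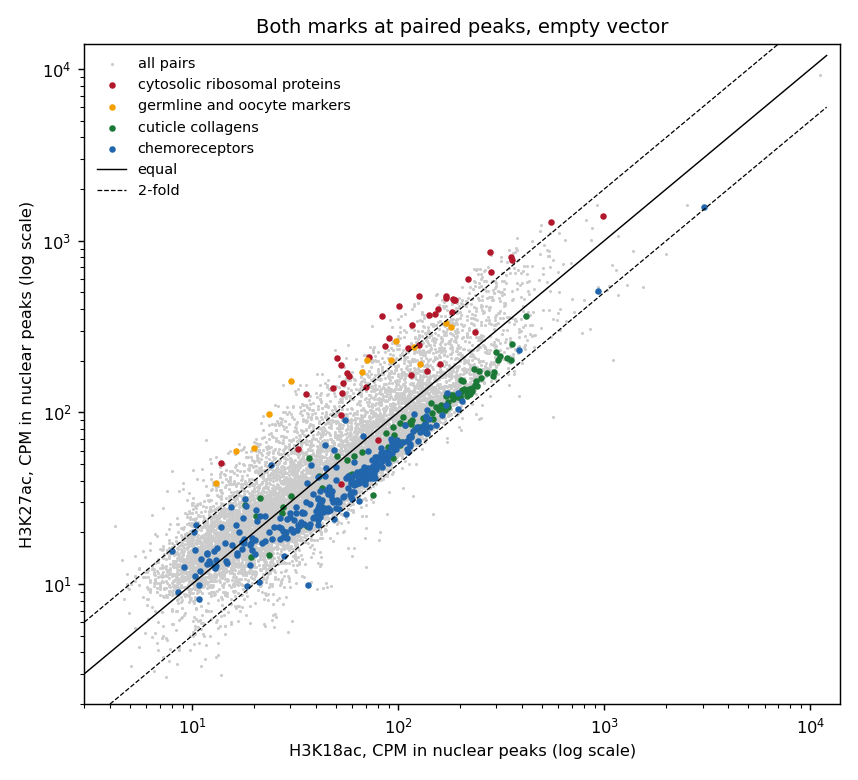
H3K27ac (vertical) against H3K18ac (horizontal) at the 12693 pairs, both in CPM on log scales, for empty vector; the solid line marks equality and the dashed lines 2-fold. Genes for cytosolic ribosomal proteins and germline genes lie mostly above the cloud, and cuticle collagen and chemoreceptor genes mostly within its lower part.

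The regions at the 2 ends differed in more than their ratio. Pairs favouring H3K27ac had median peak widths of 1020 bp for H3K27ac and 795 bp for H3K18ac, a median strength (mean CPM of both marks) of 59.5, and 51.6% of them lay over a gene start. Pairs favouring H3K18ac had median widths of 444 bp for H3K27ac and 584 bp for H3K18ac, a median strength of 24.1, and 17.3% lay over a gene start. Among pairs favouring neither, 24.6% lay over a gene start. When all pairs were counted anew per kb of peak, 664 favoured H3K27ac and 247 favoured H3K18ac, not necessarily the same pairs as before. The part of unequal peak width in the differences in strength and place was not tested.

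Position relative to the gene start came first among the gene parts. Pairs over an annotated gene start had a median log2 ratio of 0.04 (n = 3337), against -0.23 for pairs assigned to a gene but elsewhere (n = 8847). H3K27ac was favoured by 13.7% of pairs over a start and 3.44% of the others, while H3K18ac was favoured by 1.41% and 2.34%. Inside genes the median was -0.20 (n = 3570). Upstream it was -0.24 within 1 kb (n = 1834) and -0.25 beyond (n = 1983), and downstream it was -0.27 both within 1 kb (n = 747) and beyond (n = 713). Beyond 1 kb upstream, 1.61% favoured H3K27ac and 3.08% favoured H3K18ac on the CPM scale. That order turned with the scaling, to 3.58% and 1.92% under TMM, while pairs over a start had 19.15% and 0.72% under it.

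The excess over starts was larger in protein-coding genes than in other gene types. Their pairs over a start had a median of 0.28 (n = 1953), with 19.9% favouring H3K27ac and 1.08% favouring H3K18ac, against a median of -0.21 elsewhere (n = 6171), with 4.07% and 2.27%. Pairs over the start of another gene type had a median of -0.24 (n = 1276), with 4.08% favouring H3K27ac. Elsewhere, pairs of these types had a median of -0.29 (n = 2506), with 1.96% favouring H3K27ac. Many of these other genes are very short: where the whole gene lay inside both peaks the median was -0.23 (n = 1158), and where the gene reached beyond them it was 0.22 (n = 2179). Per kb of peak, protein-coding starts had a median of 0.27 and other places of protein-coding genes -0.19.

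Along protein-coding genes the ratio formed a narrow crest around the start. Pairs centred 500 to 250 bp upstream had a median of 0.19, and those centred in the last 250 bp upstream 0.21. It was 0.07 in the first 250 bp downstream, -0.01 between 250 and 500 bp, and -0.26 between 500 and 750 bp. Further out the profile was flatter. The median was -0.17 between 750 and 1000 bp downstream and -0.17 between 2000 and 3000 bp. Upstream it was -0.15 between 1500 and 1000 bp, and lowest of all between 3000 and 2000 bp, at -0.32. Inside the gene, pairs not touching the start were taken over all gene types, not only protein-coding ones. Their medians were -0.13, -0.24 and -0.27 in the first, middle and last stretch of 3 equal ones (n = 1332, 1421 and 817). H3K18ac therefore had its larger relative share away from the start, both in gene bodies and upstream.

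The same difference was seen inside single genes. Of 306 genes with 1 pair over the start and another at least 1 kb inside, the start pair had the higher log2 ratio in 195, or 63.7%. The start pairs had a median of 0.19 and the inside pairs of -0.09, and the median difference was 0.24 with quartiles of -0.16 and 0.69. Per kb of peak the median difference was 0.30 and the start was higher in 71.6%. In the cco-1 RNAi libraries it was 0.22 and 67.3%.

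The following genes were picked as illustrations after their values were seen. At eel-1, which encodes a large E3 ubiquitin ligase, the start had 154 CPM of H3K27ac and 55.2 CPM of H3K18ac, a log2 ratio of 1.48. A second eel-1 pair 5744.5 bp inside had 69.8 CPM of H3K27ac and 89.6 CPM of H3K18ac, a log2 ratio of -0.36. The start was relatively richer in H3K27ac and the gene body relatively richer in H3K18ac. The nuclear export receptor gene xpo-2 had log2 ratios of 1.47 at the start and -0.06 inside, and the nucleoporin gene npp-3 had 1.18 and -0.21. Other genes had the opposite order. The phosphatase gene cdc-25.2 had -0.84 at the start and 0.18 inside, the body wall muscle myosin gene unc-54 had -0.64 and 0.14, and the moulting regulator nhr-23 had -0.35 and 0.13.

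Strength moved with the ratio as well, in a curve with high ends. From the weakest to the strongest decile of mean CPM the median log2 ratio was 0.20, 0.10, -0.01, -0.13, -0.28, -0.36, -0.43, -0.43, -0.31 and 0.16. In the cco-1 RNAi libraries the same deciles had medians of -0.22 in the lowest, -0.41 in decile 5 and 0.15 in the highest, against -0.28 for all pairs. The weak end was thus less raised there than in empty vector, though still above the middle. In the strongest decile the place separated the pairs most, with a median of 0.55 over a gene start (n = 634, 26.2% favouring H3K27ac) and -0.32 elsewhere (n = 517, 2.90%). The part of strength in the differences between places was not tested beyond these deciles, in each of which the median over starts was the higher.

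**Figure D2:**
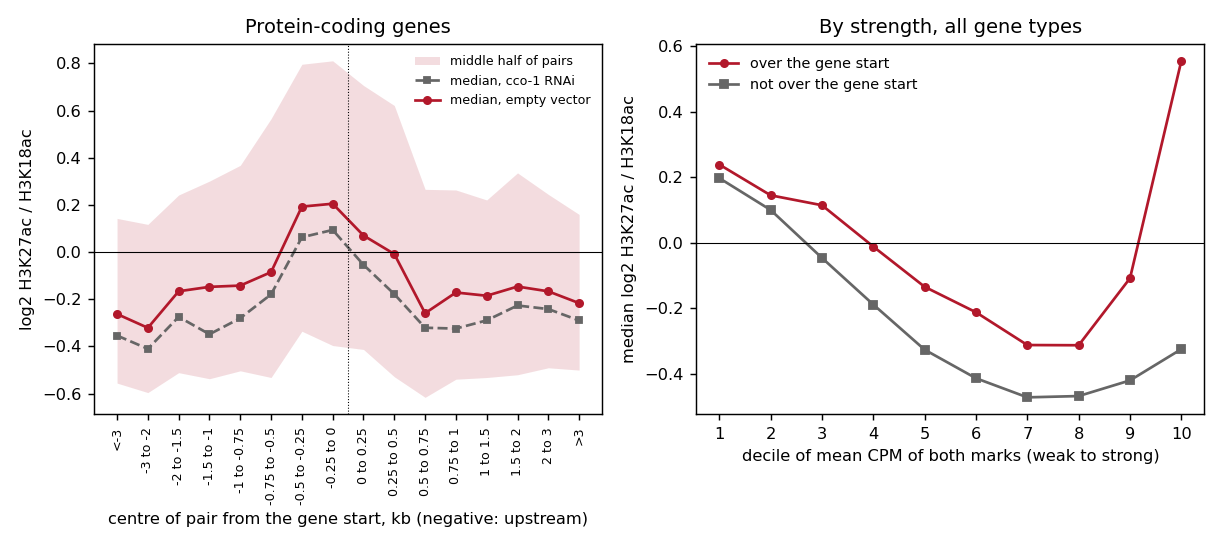
Left, median log2 H3K27ac / H3K18ac by distance of the pair's centre from the start of protein-coding genes (kb, negative upstream), with the shaded band holding the middle 50% of pairs in empty vector. Right, the median by decile of strength for pairs over a gene start and elsewhere; the ratio crests just upstream of the start, at 0.21, and places differ most in the strongest decile, 0.55 against -0.32.

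Chromosome position separated the pairs too. The median log2 ratio was -0.07 on chromosome I, -0.15 on II, -0.06 on III, -0.18 on IV, -0.33 on V and -0.24 on the covered stretch of X. On X, 1.69% of pairs favoured H3K27ac, against 9.49% on III. Autosomal pairs in the centre of 3 equal stretches had a median of 0.10 (n = 2562, 11.9% favouring H3K27ac), and those in the outer stretches -0.21 (n = 9007, 6.22%). The centre was the higher on each autosome, with 0.23 and -0.15 on I, 0.13 and -0.21 on II, 0.23 and -0.12 on III, -0.03 and -0.20 on IV, and -0.11 and -0.36 on V. Worm autosome centres are known for a high density of conserved, broadly used genes and the arms for expanded receptor families, and the part of gene content in this difference was not tested.

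For genes, each was given its strongest pair among those assigned to it in both deposited tables, which left 9037 genes with a median log2 ratio of -0.20. Of these, 634 genes favoured H3K27ac, or 7.02%, and 175 favoured H3K18ac, or 1.94%. At 1.5-fold these were 1465 (16.2%) and 2025 (22.4%). Protein-coding genes made up 531 of the genes favouring H3K27ac (83.8%) and 105 of those favouring H3K18ac (60%), against 64.7% of all genes. The H3K27ac-favouring pair lay over the start in 432 of 634 genes, and the H3K18ac-favouring pair in 44 of 175.

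The genes named at both ends are the 10 highest and 10 lowest among those whose pair had at least the median strength, 43.3 CPM; weaker pairs reached higher ratios, up to 2.52. The highest 10 included members of the germline, ribosomal protein and DNA replication lists. Above that strength the largest ratio was that of mex-5, whose RNA-binding protein sets up polarity in the early embryo. Its pair, at 13353548 to 13354925 on chromosome IV for H3K27ac (WBcel235), covers the gene start. It had 1706 H3K27ac counts and 250 H3K18ac counts, or 153 and 30.1 CPM, a 5.07-fold difference with an interval of 4.44 to 5.81. The H3K27ac peak of mex-5 was 1378 bp wide and the H3K18ac peak 709 bp, and per kb of peak the log2 ratio was 1.38 instead of 2.34.

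The small ribosomal subunit gene rps-8 had 367 CPM of H3K27ac and 83.9 CPM of H3K18ac, a 4.37-fold difference (4.03 to 4.75). A second gene of that subunit, rps-13, had 418 and 101 CPM, 4.15-fold (3.85 to 4.47), with peaks of nearly equal width, 1897 and 1789 bp. The sliding clamp of DNA replication, pcn-1, had 144.5 CPM of H3K27ac and 33.3 CPM of H3K18ac, 4.34-fold (3.82 to 4.95). Genes of chromosome segregation and RNA handling stood beside them. The log2 ratio was 2.07 for the kinetochore gene hcp-1, 2.105 for lsm-6, whose product binds U6 small nuclear RNA, and 2.12 for the spliceosome-associated gene cacn-1. The remaining members of the highest 10 were Y37E3.22 at 2.115, F26B1.2 at 2.09 and ribo-1, an oligosaccharyltransferase subunit gene, at 2.06. Of these 10 pairs, the pair of cacn-1 was the one that lay inside a gene instead of over its start. In the cco-1 RNAi libraries the log2 ratios of the 10 lay between 1.10 for pcn-1 and 1.81 for F26B1.2.

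At the H3K18ac end the pairs lay away from gene starts. The pair assigned to catp-7, a cation-transporting ATPase gene, had 94.1 CPM of H3K27ac and 565 CPM of H3K18ac, so that H3K18ac was 6.01-fold higher (5.62 to 6.43). Its centre was at -6474.5 bp from that gene's start, at 8578237 to 8579898 on chromosome IV for H3K27ac. The pair assigned to Y59H11AM.1, at 8576957 to 8577262, is its neighbour and had 25.6 CPM of H3K27ac and 147.5 CPM of H3K18ac, H3K18ac being 5.75-fold higher (5.05 to 6.57; log2 ratio -2.52). The pair assigned to B0403.6 on chromosome X had 201 and 1107.5 CPM, and H3K18ac was 5.52-fold higher (5.27 to 5.78).

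These extremes were not seen again at that size in the cco-1 RNAi libraries. The catp-7 pair had 99.2 CPM of H3K27ac and 148 CPM of H3K18ac there, a log2 ratio of -0.58 against -2.59 in empty vector. The log2 ratio of Y59H11AM.1 was -0.74 there and -2.52 in empty vector, and that of B0403.6 was -0.73 there and -2.46 in empty vector. In each of these 3 pairs H3K18ac still had the larger share, and with 1 library per mark and feeding the feeding and the library cannot be told apart. The other members of the lowest 10 of at least median strength had log2 ratios between -2.155 and -1.63 in empty vector (lowest for H05O09.3). They included the C-type lectin gene clec-113 at -2.01, the hedgehog-related gene grl-15 at -1.89, the calcium sensor gene stim-1 at -1.785 and ech-7, an enoyl-CoA hydratase gene, at -1.72. None of the 10 pairs lay over its gene's start.

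**Figure D3:**
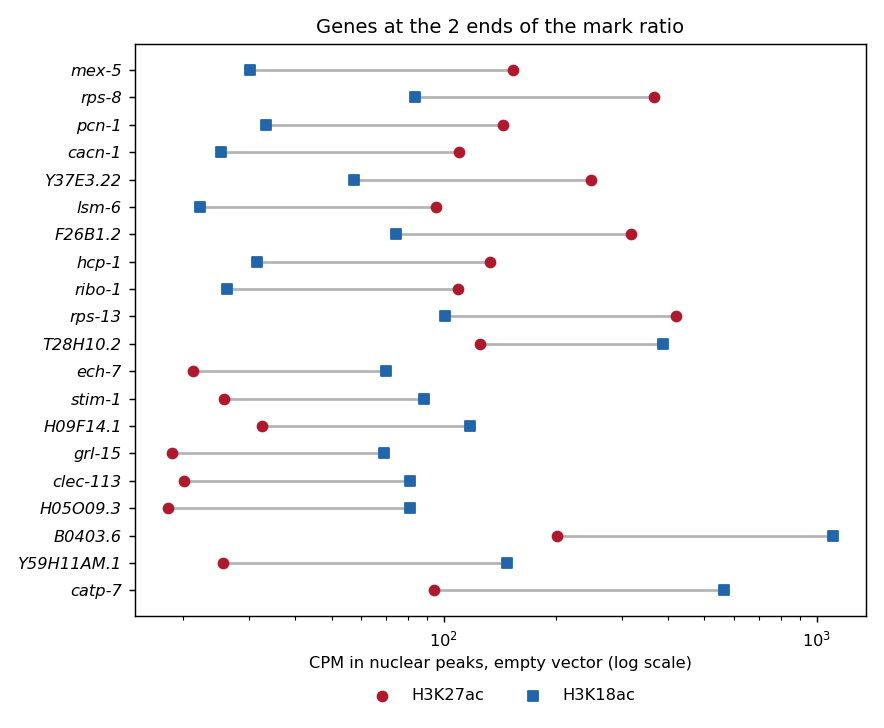
H3K27ac (circles) and H3K18ac (squares) in CPM on a log scale for the 10 genes with the highest and the 10 with the lowest log2 ratio among those of at least median strength, empty vector. The upper 10 have H3K27ac to the right by more than 4-fold, and the lower 10 have H3K18ac to the right, reaching 565 CPM against 94.1 CPM of H3K27ac at catp-7.

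The strongest pairs were not those with the largest ratios. The pair of rrn-2.1, in the ribosomal DNA repeat whose copies share reads, had 9198 CPM of H3K27ac and 11159 CPM of H3K18ac, a log2 ratio of -0.28. The pairs assigned to srz-98, fbxa-55 and F52G2.3 had log2 ratios of -0.97, -0.65 and -1.255. The chromatin protein gene hmg-1.1 had 1612.5 CPM of H3K27ac and 921 CPM of H3K18ac, a log2 ratio of 0.81.

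Gene lists for tissues and functions were then ordered by their median. Of 41 lists, the germline and oocyte markers had the highest median log2 ratio, 1.41, and the cuticle collagens the lowest, -0.59, against -0.20 for all genes. Counts of members favouring a mark are to be read beside the shares over all genes. These were 7.02% for H3K27ac and 1.94% for H3K18ac. Relative to all genes, 31 of the 41 lists kept the sign of their median under each of up to 14 other settings, some of which, such as the scalings, move all lists alike. The 10 that did not are named below with no direction given. Each list is described by the genes that had a pair, which are those acetylated enough for a peak in both tables, and lists with few such members are weakly described.

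Germline and oocyte genes lay furthest toward H3K27ac. Of 43 genes on the list, 34 were assigned an H3K27ac peak, 18 an H3K18ac peak and 13 a pair, so that unpaired H3K27ac peaks were common among them. All 13 were above the median of all genes, 9 favoured H3K27ac and 0 favoured H3K18ac. Their H3K27ac peaks had a median width of 958 bp and their H3K18ac peaks of 749 bp, and per kb of peak the median relative to all genes was 1.22 instead of 1.61. Next to mex-5, the oocyte RNA-binding gene puf-5 had 97.75 CPM of H3K27ac and 23.6 CPM of H3K18ac, a log2 ratio of 2.05. The germ granule helicase gene cgh-1 had 201 and 70.5 CPM, a log2 ratio of 1.51. The yolk receptor gene rme-2 had 1925 H3K27ac counts and 554 H3K18ac counts, a log2 ratio of 1.37. The lowest members were mex-1 at 0.58 and mex-3 at 0.80, both RNA-binding regulators of early embryonic fate, so the list did not reach below an equal share.

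Genes for DNA replication and the cell cycle had the same direction. Of 111 on the list, 46 had a pair, with a median log2 ratio of 0.65. Of these, 16 favoured H3K27ac and 0 favoured H3K18ac. Beside pcn-1 and hcp-1, the B-type cyclin gene cyb-3 had 364 CPM of H3K27ac and 103.2 CPM of H3K18ac, a log2 ratio of 1.82. The median was 1.11 for the 24 genes whose pair lay over the start and 0.19 for the other 22. The replicative helicase gene mcm-7, whose pair lay inside the gene, was lowest among those of median strength or more at -0.42.

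Sperm genes were not placed with the oocyte genes. Of 102 listed sperm genes 24 had a pair, with a median of -0.21, and 1 favoured H3K27ac while 0 favoured H3K18ac. The major sperm protein gene msp-113 had 33.4 CPM of H3K27ac and 62.8 CPM of H3K18ac, a log2 ratio of -0.91. The median of the sperm genes minus that of all genes was -0.0094. Members of the msp family are near-identical copies, and their shares of the reads are uncertain.

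Genes that nearly all cells use also leaned toward H3K27ac. The 11 lists of housekeeping genes had medians between 0.20 and 1.295, and together 224 genes with a median of 0.79, of which 81 (36.2%) favoured H3K27ac and 1 favoured H3K18ac. Over the gene start their median was 0.97 (n = 140), and elsewhere 0.27 (n = 84).

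Cytosolic ribosomal protein genes were highest among the housekeeping lists. Of 64 genes 43 had a pair, of which 33 favoured H3K27ac and 0 favoured H3K18ac, with a median of 1.295. In 38 of the 43 the pair lay over the start. Besides rps-8 and rps-13, rpl-11.1 of the large subunit had 208 CPM of H3K27ac and 50.6 CPM of H3K18ac, a log2 ratio of 2.04. Members did not all follow. The pair of rpl-37, inside the gene, had 38.2 CPM of H3K27ac and 52.9 CPM of H3K18ac, a log2 ratio of -0.47, and that of rpl-25.1 had a log2 ratio of -0.22.

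The lists for energy supply had positive medians of unlike size. Of 57 respiratory chain and ATP synthase genes 20 had a pair, with a median of 0.96, and 10 favoured H3K27ac while 0 favoured H3K18ac. The ATP synthase beta subunit gene atp-2 had 489 CPM of H3K27ac and 155 CPM of H3K18ac, a log2 ratio of 1.66. The complex I gene lpd-5 had 70.15 CPM and 20.4 CPM, a log2 ratio of 1.78, and the cytochrome oxidase assembly gene cox-15 had 72.7 and 69.9 CPM, a ratio of 0.06. The citric acid cycle genes had a median of 0.72 (n = 6), with dld-1, a dehydrogenase subunit gene, at 1.13 and ogdh-1 at -0.02. Proton pump genes of the vacuolar ATPase had a median of 0.75 (n = 15, 4 favouring H3K27ac), led by the membrane-sector gene vha-1 at 1.62. For glycolysis and gluconeogenesis the median was 0.49 (n = 16), and 0 favoured either mark. Among them pgk-1, phosphoglycerate kinase, was at 0.79 and pfk-1.1, phosphofructokinase, at -0.63.

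Genes that make, process and break down RNA and protein had positive medians too. The median was 0.82 for the spliceosome (n = 26, 7 favouring H3K27ac) and 0.82 for the proteasome (n = 11, 2 favouring it), 0.65 for aminoacyl tRNA synthetases (n = 15, 5 favouring it), 0.62 for mitochondrial ribosomal proteins (n = 28, 6 favouring it) and 0.47 for translation factors (n = 15, 3 favouring it). None of these 5 lists had a gene favouring H3K18ac. The proteasome lid deubiquitinase gene rpn-11 had 187 CPM of H3K27ac and 66.6 CPM of H3K18ac, a log2 ratio of 1.49. The mitochondrial ribosome gene mrps-35 was at 1.82 and the elongation factor gene eef-1B.1 at 1.248. RNA polymerase II and general transcription factors were the most divided, with a median of 0.20 (n = 29), 9 favouring H3K27ac and 1 favouring H3K18ac. Their median was 1.23 for 9 pairs over a start and -0.04 for 20 elsewhere. In that list the largest subunit gene ama-1 had 126 CPM of H3K27ac and 41.6 CPM of H3K18ac, a log2 ratio of 1.60. Its H3K27ac and H3K18ac peaks were 892 and 481 bp wide, and per kb of peak its log2 ratio was 0.71.

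Chromatin and stress genes had positive medians as well. Enzymes of histone acetylation and methylation had a median of 0.40 (n = 37), with 11 favouring H3K27ac and 0 favouring H3K18ac, and medians of 1.005 for 14 pairs over a start and -0.01 for 23 elsewhere. The H3K36 methyltransferase gene met-1 was at 1.525. The acetyltransferase gene cbp-1, whose paired peaks lay inside the gene, had 115 CPM of H3K27ac and 116.5 CPM of H3K18ac, a log2 ratio of -0.02 with a fold of 0.99 (0.91 to 1.08). Histone genes had a median of 0.64 (n = 10 of 83, 2 favouring H3K27ac), and since many are near-identical copies their shares of the reads are uncertain. Heat shock and endoplasmic reticulum stress genes had a median of 0.70 (n = 12, 3 favouring H3K27ac), with the calreticulin gene crt-1 at 1.27 and the transcription factor gene xbp-1 at 1.01. Autophagy genes had a median of 0.09 (n = 17, 2 favouring H3K27ac).

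Genes listed for the mitochondrial stress response did not share 1 ratio in unstressed worms. The median of 11 mitochondrial stress response genes was 0.36, with 2 favouring H3K27ac and 0 favouring H3K18ac. The matrix chaperone gene hsp-60 had 1228.5 CPM of H3K27ac and 495 CPM of H3K18ac, 2.48-fold (2.40 to 2.57). The stress transcription factor gene atfs-1 had 196 and 92.4 CPM, 2.12-fold (1.951 to 2.304), with H3K27ac and H3K18ac peaks 2119 and 1500 bp wide, and per kb of peak its log2 ratio was 0.59 instead of 1.08. The homeodomain regulator gene dve-1 had 43.0 CPM of H3K27ac and 65.35 CPM of H3K18ac, a log2 ratio of -0.60. The list was drawn by symbol and also took in tim-1, a homologue of the DNA replication and cohesion gene timeless, at -0.62. The reporter's gene, the matrix chaperone gene hsp-6, had no pair assigned to it in both tables. The pair beside it was assigned to C37H5.5 for H3K27ac and to hsp-6 for H3K18ac, and had 449 CPM of H3K27ac and 288 CPM of H3K18ac, 1.56-fold (1.483 to 1.635), in a strain that also carries the reporter. Per kb of peak its log2 ratio was 0.25 instead of 0.64. The cco-1 gene itself had 909 and 375 CPM, a log2 ratio of 1.28 and a per-kb ratio of 0.41, its H3K27ac peak being 4047 bp and its H3K18ac peak 2225 bp wide.

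Families of receptors and of the cuticle lay at the H3K18ac side. Cuticle collagens, the structural proteins of the worm's exoskeleton, had a median of -0.59 over 93 of 159 genes. Of these, 0 favoured H3K27ac and 1 favoured H3K18ac (1.08%, against 1.94% of all genes). At 1.5-fold 1 was higher in H3K27ac and 47 in H3K18ac (50.5%, against 22.4% of all genes). Of the 93, 16 were above the median of all genes. The ratio was small but common to most of the family. In the collagen gene col-39, H3K27ac was 163 CPM and H3K18ac 288 CPM, a log2 ratio of -0.82. At col-170 they were 32.97 and 75.96 CPM, a log2 ratio of -1.20, and at the other end col-90 had 54.1 and 36.8 CPM, a log2 ratio of 0.56. The family's median was lower than all genes, with a difference of -0.058 in the cco-1 RNAi libraries, against -0.39 in empty vector.

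Chemoreceptors, the large family of receptors by which sensory neurons detect odours, had a median of -0.56 over 262 of 1628 genes. Of these, 2 favoured H3K27ac and 5 favoured H3K18ac (1.91%, close to the 1.94% of all genes). At 1.5-fold 10 were higher in H3K27ac and 122 in H3K18ac (46.6%, against 22.4% of all genes). Their pairs were mostly small, with median widths of 464 bp for H3K27ac and 440.5 bp for H3K18ac, and 251 of 262 did not lie over a start. The receptor gene srh-246 had 30.4 CPM of H3K27ac and 64.9 CPM of H3K18ac, a log2 ratio of -1.095, and str-261 had 90.7 and 55.3 CPM, a log2 ratio of 0.71. Members of this family have close copies, and reads shared between copies are uncertain.

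Other signalling families followed. Ion channels and transmitter receptors had a median of -0.47 (n = 70, 1 favouring H3K27ac and 3 favouring H3K18ac). The ligand-gated channel gene lgc-26 had 307 CPM of H3K27ac and 856 CPM of H3K18ac, a log2 ratio of -1.48, and the acetylcholine receptor gene acr-10 was at -1.12. Neuropeptides and insulin-like peptides had a median of -0.43 (n = 42, 1 and 2), with ins-25 at -1.004 and ins-17 at 1.38. C-type lectins, many of which respond to pathogens, had a median of -0.45 (n = 81, 1 and 3), with clec-246 at -1.03. Nuclear hormone receptors had a median of -0.34 (n = 84), and 8 of them favoured H3K18ac while 1 favoured H3K27ac. Among these, nhr-276 had 40.1 CPM of H3K27ac and 80.8 CPM of H3K18ac, a log2 ratio of -1.01, and nhr-47 had 395 and 172 CPM, a ratio of 1.195.

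Further families had medians a little below that of all genes. These were F-box genes at -0.34 (n = 86, 2 favouring H3K27ac and 3 favouring H3K18ac), hedgehog-related and patched-related genes at -0.32 (n = 39, 1 and 1) and homeobox genes at -0.29 (n = 36, 2 and 0). The bZIP factors lay on the other side, at 0.24 (n = 13, 2 and 0), a list that includes atfs-1 and xbp-1. Together the 20 lists of regulated genes, from stress and cell cycle genes to receptors and collagens, held 1025 genes with a median of -0.39. Their median was -0.07 over a start (n = 224) and -0.45 elsewhere (n = 801). This pools lists that differ in how many pairs lay over a start, and single lists did not all share the difference. Over a start and elsewhere, F-box genes had 0.19 and -0.50, and chemoreceptors -0.25 and -0.57. Cuticle collagens had -0.55 and -0.59. The order was the opposite in nuclear hormone receptors, -0.42 and -0.34, and in ion channels and transmitter receptors, -0.52 and -0.41.

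**Figure D4:**
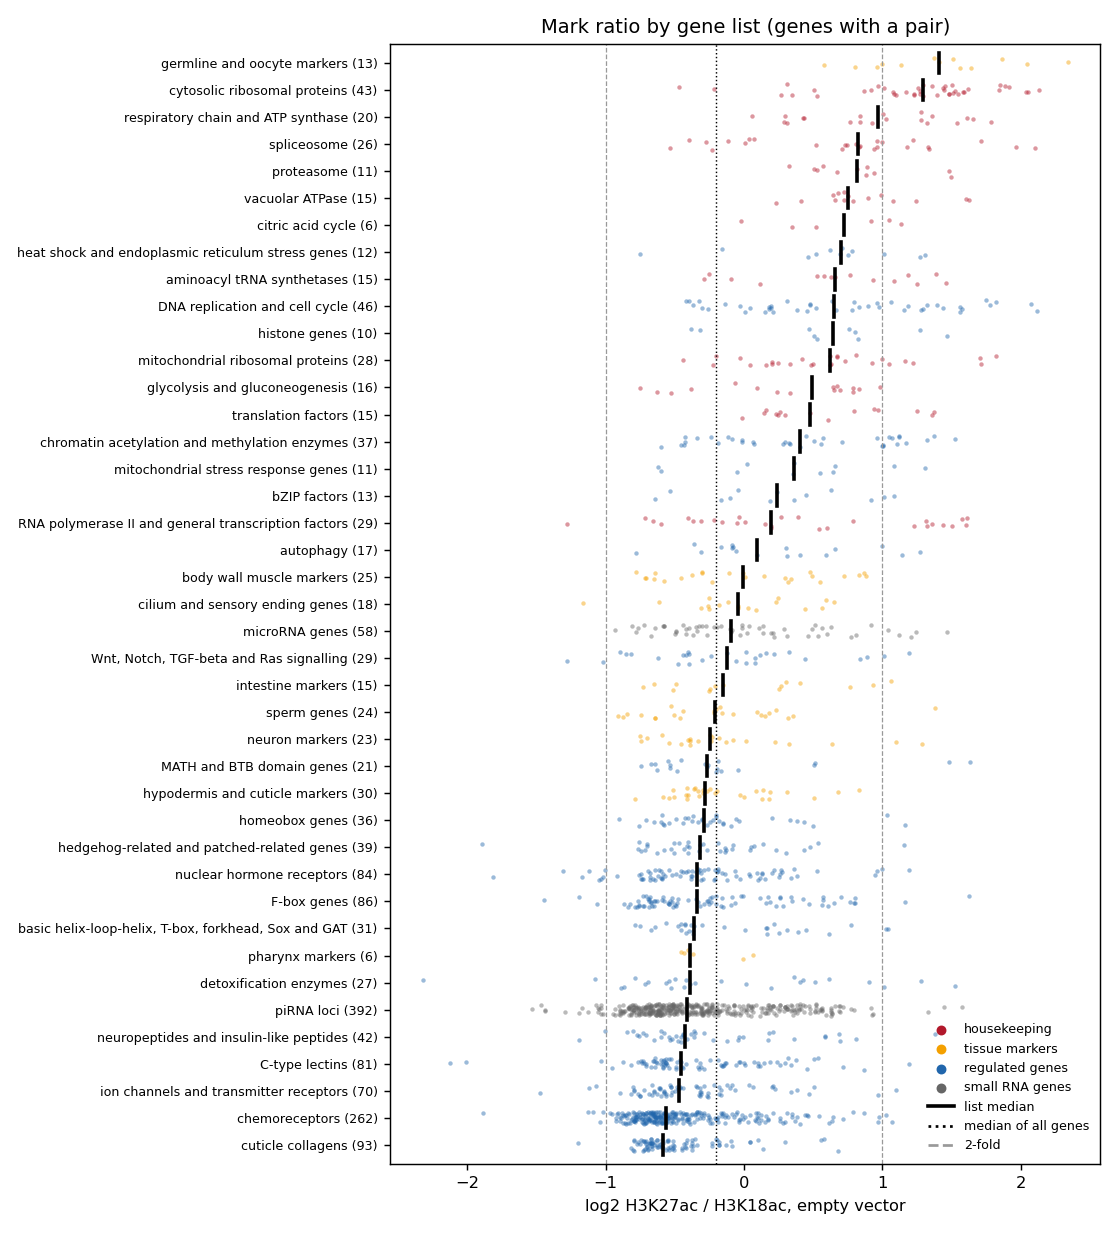
Log2 H3K27ac / H3K18ac in empty vector for every gene with a pair in each of the 41 lists (points), ordered by list median (bars), with the number of genes in brackets; the dotted line is the median of all genes and the dashed lines are 2-fold. Germline and ribosomal protein genes stand at the top, with medians of 1.41 and 1.295, and chemoreceptors and collagens at the bottom, with -0.56 and -0.59.

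Markers of somatic tissues lay near the median of all genes, with wide spreads. Body wall muscle genes had a median of -0.01 (n = 25), intestine genes -0.155 (n = 15), neuron genes -0.25 (n = 23), hypodermis genes -0.28 (n = 30) and pharynx genes -0.39 (n = 6). Each of these 5 lists changed side of the all-gene median under at least 1 other setting, so none is given a direction. The 5 other lists for which that was so were detoxification enzymes (-0.39), MATH and BTB domain genes (-0.27), Wnt, Notch, TGF-beta and Ras signalling genes (-0.12), microRNA genes (-0.09) and the developmental factors of the basic helix-loop-helix, T-box, forkhead, Sox and GATA classes (-0.365). Cilium and sensory ending genes lay at -0.04 (n = 18), with a difference of 0.16 from all genes.

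Among the muscle markers, all read in whole worms, the tropomyosin gene lev-11 had 90.8 CPM of H3K27ac and 156 CPM of H3K18ac. Its log2 ratio was -0.78, and the paramyosin gene unc-15 was at -0.71. The myosin chaperone gene unc-45 was at 0.88. Among the neuron markers, the synaptobrevin gene snb-1 had 1551 H3K27ac counts and 472 H3K18ac counts, a log2 ratio of 1.29. Its H3K27ac and H3K18ac peaks were 1297 and 701 bp wide, and per kb of peak its log2 ratio was 0.40. The gene unc-10, of the synaptic active zone, was at -0.75. Among the intestine markers, the yolk protein gene vit-2 had 70.3 and 110 CPM, a log2 ratio of -0.65. Among the hypodermis markers, the cuticle collagen gene dpy-13 had 221 CPM of H3K27ac and 381 CPM of H3K18ac, a log2 ratio of -0.79.

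Types of gene that make no protein had medians between -0.45 and -0.05 where at least 30 genes had a pair, against -0.14 for protein-coding genes (n = 5846). Loci of piRNAs, small RNAs that guard the germline genome, had a median of -0.41 (n = 392 of 15363), with 3 favouring H3K27ac and 16 favouring H3K18ac. The locus 21ur-9229 had 36.4 CPM of H3K27ac and 105 CPM of H3K18ac, a log2 ratio of -1.53. Pseudogenes had a median of -0.45 (n = 465), other noncoding RNA genes -0.24 (n = 1730) and tRNA genes -0.23 (n = 102). Small nucleolar RNA genes had a median of -0.05 (n = 130) and microRNA genes of -0.09. Among 58 microRNA genes, 5 favoured H3K27ac and 0 favoured H3K18ac. The gene mir-250 had 117 CPM of H3K27ac and 42.4 CPM of H3K18ac, a log2 ratio of 1.46, and mir-249 had 341.5 and 650.6 CPM, a log2 ratio of -0.93. Such short genes often lie inside or beside a longer gene, so a peak assigned to one may belong to its neighbour.

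Most of the described genes were in no list. The 7185 genes outside the 41 lists had a median of -0.18, with 478 favouring H3K27ac (6.65%) and 127 favouring H3K18ac (1.77%). They make up most of the 9037 genes, so their shares could not lie far from those over all genes.

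The libraries from worms fed cco-1 RNAi are the one other measurement with the same antibodies. They differ in feeding and are no replicates. Over the 12693 pairs, the log2 ratio in cco-1 RNAi and that in empty vector had a Pearson's r of 0.73 and a Spearman's rho of 0.66, for points that share peaks, antibodies and positions. Of the 883 pairs favouring H3K27ac in empty vector, 855 (96.8%) had a log2 ratio above 0 in cco-1 RNAi and 408 (46.2%) were past 2-fold again. Of the 272 favouring H3K18ac, 254 (93.4%) had a ratio below 0 and 81 (29.8%) were past 2-fold. The median of all genes was -0.29 in cco-1 RNAi and -0.20 in empty vector, so lists were set against it within each feeding. The housekeeping genes together were 1.08 above all genes in cco-1 RNAi and 0.99 above them in empty vector. The regulated genes together differed from all genes by -0.10 in cco-1 RNAi, against -0.19 in empty vector. The germline median was 1.20 above all genes in cco-1 RNAi and 1.61 above them in empty vector.

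**Figure D5:**
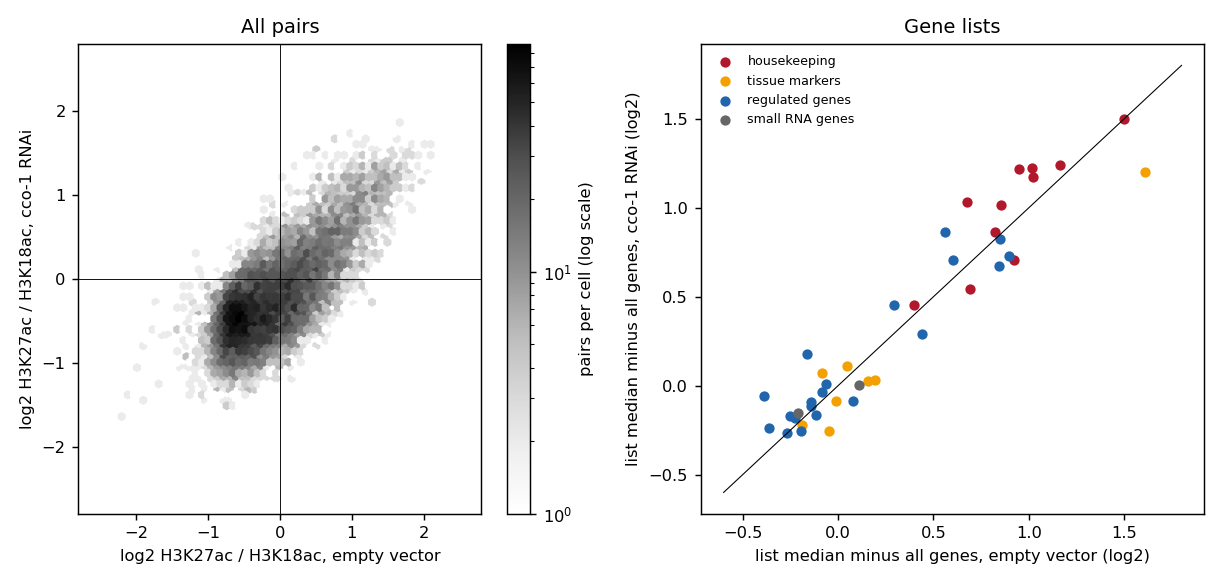
Left, log2 H3K27ac / H3K18ac of all pairs in cco-1 RNAi (vertical) and in empty vector (horizontal), with shading for the number of pairs. Right, each list's median minus that of all genes in the same libraries, with the line of equality; most lists lie near the line, and collagens are at -0.058 in cco-1 RNAi, against -0.39 in empty vector.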

How the data were processed

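Per the file headers, each mark has a deposited table with the position of a peak, its assigned gene and whole-number counts for both feedings. The counts were read as not normalized by the authors because they are whole numbers with different library totals. WBcel235 and ce11 are the builds in the submitters' processing notes, which also list MACS2 2.1.2, SAMtools 1.4.1, Bowtie2 2.3.5 and FastQC with no role for any of them. How reads were filtered and counted, and how the inputs were used, is not given in the sources used here. Empty vector and cco-1 RNAi share 1 peak set per mark, and the counts are not corrected for input, so antibody affinity and background enter the ratio.

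Peaks listed with several features were used once. Mitochondrial peaks (3 for H3K27ac and 5 for H3K18ac), with 0 counts, were left out. Pairs needed an overlap of at least 50% of each peak. The 350 overlaps of 45 to 50% had a median log2 ratio of 0.055 and the 383 of 50 to 55% a median of 0.05. CPM used each library's total in nuclear peaks of the shared span, with no pseudocount. In all, 12184 pairs had a gene assigned in both tables and 509 had none. Gene types came from RefSeq, which matched 97.6% of genes. Place is relative to the assigned gene, measured from the edges of both peaks.

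Named genes were, among those of at least median strength (43.3 CPM), the 10 highest and 10 lowest ratios, up to 3 at each end of a list, the 5 strongest pairs, and always cco-1, cbp-1, dve-1, atfs-1, hsp-60 and hsp-6. The gene rme-2 and those said to be illustrations fall outside the rule and were chosen after their values were seen. The members and lists were chosen with earlier results of these data known. With 1 library per group no test between marks was made and no p-value is given. Python 3.11.15, pandas 2.3.3, NumPy 2.4.6, SciPy 1.17.1 and edgeR 4.0.16 (TMM factors as an alternative) were used. Pairing and calling were tested on simulated data. Alternatives were the fold, overlap, scaling, width, strength, pseudocount, pair taken, gene type and the cco-1 RNAi libraries.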

Additional observations from a re-analysis of the deposited data

Results flagged for a closer look

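The pair at cco-1 pointed slightly to H3K18ac in cco-1 RNAi and to H3K27ac in empty vector. In the cco-1 RNAi libraries it had 2861 CPM of H3K27ac and 3120 CPM of H3K18ac, a log2 ratio of -0.12. In empty vector it had 909 CPM of H3K27ac and 375 CPM of H3K18ac, a log2 ratio of 1.28. The difference was not tested, since there is 1 library per mark and feeding. The gene is the target of the RNAi, and reads from the feeding plasmid were not separated from those of the worm.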

How the results depend on the processing

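The difference between places and the 4 summarised lists (germline, ribosomal, collagen and chemoreceptor genes) kept their direction in each setting run. The fold set the counts and which mark had more of them, with 2040 and 2635 pairs (H3K27ac, H3K18ac) and 1465 and 2025 genes at 1.5-fold, and 146 and 48 pairs and 100 and 31 genes at 3-fold, against 883 and 272 pairs and 634 and 175 genes at 2-fold. With an overlap of at least 80% the counts were 447 and 113 pairs and 361 and 82 genes, and with 1 bp those favouring H3K18ac were 619 pairs and 387 genes. Scaling moved the H3K18ac counts to 161 pairs and 97 genes (median pair at 0) or 149 pairs and 89 genes (TMM, with 952 genes favouring H3K27ac). Pairs of at least median strength gave 535 and 71 pairs, 409 and 51 genes, a start-minus-elsewhere difference of 0.42 (0.27 in all), and list medians relative to all genes of -0.26 for collagens and -0.30 for chemoreceptors. Without such a limit these were -0.39 and -0.36. The chemoreceptor value was -0.46 per kb of peak, -0.23 centred on strength decile, -0.40 with the pair nearest to the start, -0.45 within 1 kb of it and -0.24 in cco-1 RNAi. Collagens were at -0.47 within 1 kb of the start and -0.058 in cco-1 RNAi, where 490 pairs and 332 genes favoured H3K18ac. Ribosomal protein genes were at 1.298 centred on strength, against 1.496. Within 1 kb of the start, 116 genes favoured H3K18ac. Restriction to protein-coding genes, chosen after seeing the data, gave 105 such genes, a start difference of 0.48, collagens at -0.45 and chemoreceptors at -0.41. The causes of these moves were not tested. For the other 37 lists, 15 of 516 values left the range of the list's median. The median of all pairs was 0.02 under TMM scaling, against -0.16. For 259 named genes, 964 of 2072 log2 ratios left their counting interval, and 1 gene past 2-fold changed sign: cco-1 at -0.12 in cco-1 RNAi. A pseudocount of 1 CPM and the other totals moved no summary value past these limits.

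No paired analysis was possible because each mark and feeding has 1 library and the numbers in the titles go with the antibody. Leaving out a replicate could not be run for the same reason, and promoter sequences were not analysed here. Depth limits weak pairs most: the minimum was 32 H3K27ac counts and 35 H3K18ac counts.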
